A study of Mus musculus with 4 samples.

Results

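Aminoacyl-tRNA synthetases are the enzymes that join each amino acid to its tRNA, the step at which the genetic code is read into protein. One set works in the cytosol, and a second set, encoded in the nucleus and imported, serves the ribosomes inside mitochondria. Several of the cytosolic enzymes are held together in a large multisynthetase complex, and uncharged tRNA that accumulates when amino acids run short activates the kinase Gcn2 and the transcription factor Atf4. Blood stem cells are known for a low rate of protein synthesis, so the supply of charged tRNA is of interest in them.

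The genes were taken by name from the deposited table: symbols made of 1 letter followed by "ars", with or without a closing 2, together with Eprs, Farsa and Farsb, provided that the table gave library values. This found 35 of the 9244 genes with library values, 19 for cytosolic enzymes and 16, whose names end in 2, for mitochondrial enzymes. Of the 37 names in the family, the alanyl enzymes Aars and Aars2 had no library values under those names and are not analysed here. Gars and Kars were counted as cytosolic, although each gene makes both forms of its enzyme. No gene in the table averages under 120.2 normalised counts, and the lowest synthetase, Yars2, lay just above that level, at values of 133 to 179.7.

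The study measured polyA RNA of blood stem cells from C57BL/6 mice aged 8 to 12 weeks, sorted as lineage-negative, Sca-1-positive, Kit-positive cells lacking CD34 and Flk2. There were 2 wild-type (WT) libraries and 2 Sin3B KO libraries (n = 2 per genotype throughout), numbered 1 and 2 in the titles, and all were made by SMARTer, a method for small amounts of RNA. Sin3B brings histone deacetylases to genes that it helps to silence, and the comparison asks which genes depend on it. How the gene was deleted, and whether the libraries of a genotype came from separate animals, is not given in the sources used here, so the p-values here cover variation among these libraries alone, and that may be technical. In bulk libraries such as these, a change in the mix of sorted cells and a change in RNA per cell cannot be told apart.

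Sin3b itself had normalised counts of 1522 and 1825 in WT against 755 and 647 in Sin3B KO, lower in both KO libraries but not absent. Its log2 fold change was -1.25 (SE 0.22; limma, Benjamini-Hochberg adjusted p = 0.548), and the authors' deposited table gives -1.03 with an adjusted p of 0.00249. The 4 libraries held between 9950979 and 13700630 reads in the listed genes, if 1 step in their values stands for 1 read. All 11 stem cell markers looked for (among them Kit, Procr, Mecom and Hlf) were read in every library. Fgd5 and Hlf were lower in both KO libraries (Fgd5 710.3 and 1240.3 against 256.6 and 643.0, Hlf 8877 and 7805 against 5353 and 7054). These were 2 of the 11 markers, and 19.4% of all genes were lower in this way. Ly6a was higher in both KO libraries (2343 and 2628 against 2699 and 2812), and the other 8 markers overlapped between the genotypes. Fitted changes of the 11 were positive in 8 and negative in 3, and their median was 0.07 (log2). Markers of other cells differed by library number and, for some, by genotype. The summed count of 13 myeloid genes was 79548 in WT 1, 14885 in WT 2, 55134 in Sin3B KO 1 and 24776 in Sin3B KO 2, with 13 of 13 higher in WT 1 than in WT 2. The 7 measured B lineage genes summed to 4074 and 1514 in WT against 4720.1 and 1794 in the KO, with Il7r at 0 in WT 2. The 7 measured erythroid genes summed to 7720.0 and 5240.1 in WT against 17840.3 and 6897 in the KO. Slc4a1 was at 0 in WT 2. In 3 of the 7 (Gata1, Car1 and Epor) both KO libraries were higher, where 24.7% of all genes were, Gata1 at 1004 and 1063 against 3144 and 1842. The 8 genes of dividing cells summed to 7709 and 4977 in WT against 9945 and 6555 in the KO. In 2 of the 8, Aurkb (408 and 371 against 876 and 736) and Cdk1 (536 and 552 against 1008 and 746), both KO libraries were higher. That arrangement was found in 24.7% of all genes, and the groups of the other 6 overlapped. Log2 fold changes were above 0 in 7 of the 8, with Mki67 at -0.02. The part of these cells in the results below was not tested.

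The cytosolic synthetases were higher in Sin3B KO cells almost throughout, by a modest amount. Of 19 genes, 18 had a log2 fold change above 0, where 53.4% of all genes did, 1 was below 0, where 46.6% did, and the median was 0.43 (1.35-fold) beside 0.03 for all 9244 genes. In 14 of the 19, both KO libraries lay above both WT libraries, an arrangement found in 24.7% of all genes. In 0 of the 19 both lay below, where 19.4% of all genes did. Among the 5807 genes averaging at least 500, 31.8% had both KO libraries above, and 14 cytosolic synthetases did. The summed normalised count of the 19 genes was 34997 in WT 1 and 39505 in WT 2, against 50738 and 49217 in the KO libraries. The mitochondrial enzymes had a smaller median of 0.12, with 11 of 16 above 0. In 6 of these 16 both KO libraries were above both WT libraries and in 2 below. With scaling to equal totals or to upper quartiles, 16 of 19 cytosolic and 8 of 16 mitochondrial genes were above 0, and 12 (totals) and 11 (upper quartiles) cytosolic genes had both KO libraries above both WT libraries, where 18.1% and 16.1% of all genes did. The mitochondrial median depended on single libraries, at -0.0039 without WT 2, 0.0028 without Sin3B KO 1 and 0.26 without Sin3B KO 2. The difference between the compartments was not tested.

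No single synthetase passed the test over all genes. With limma on log2(normalised count + 1) and Benjamini-Hochberg adjustment, 0 of the 9244 genes passed an adjusted p of 0.05 (0.0% called), 824 had an unadjusted p under 0.05, and the smallest adjusted p among the synthetases was 0.548. At an unadjusted p under 0.05, 11 synthetases were higher in the KO, where 4.97% of all genes were, and 0 were lower, where 3.95% were. That count depends on the scaling and on single libraries: it was 4 with scaling to equal totals (2.78% of all genes) or to upper quartiles (2.26%), and 1 without Sin3B KO 1 (1.28%) or without Sin3B KO 2 (2.55%), so the share of all genes fell as well. Among genes averaging at least 500, 10 of 25 synthetases were higher at an unadjusted p under 0.05 with limma, where 7.61% of such genes were. The authors' deposited table, from the same libraries, has 10 synthetases higher at an unadjusted p under 0.05 (5.56% of all genes) and 0 lower (4.2%). Under an adjusted p of 0.05 it has 0 synthetases (0.325% of all genes).

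**Figure D1:**
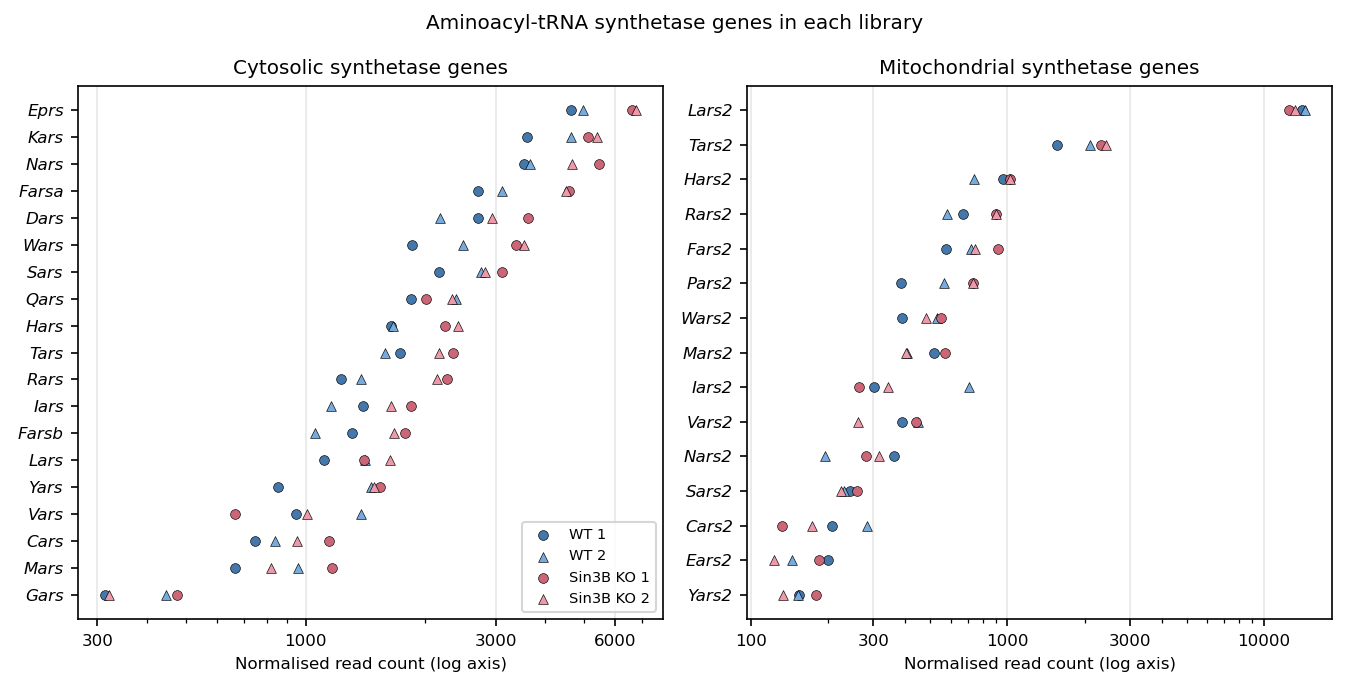
Normalised read count (log axis) of 34 of the 35 synthetase genes in the 4 libraries, cytosolic genes on the left and mitochondrial genes on the right, ordered by mean; circles are libraries numbered 1 and triangles those numbered 2, blue for WT and red for Sin3B KO. In 14 cytosolic rows both red points lie to the right of both blue points, Vars is the 1 cytosolic row shifted the other way, and Lars2 stands far above the other mitochondrial genes.

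Within the multisynthetase complex, the log2 fold changes of 8 of 8 enzymes were positive (median 0.39), or 7 of 8, with Qars below 0, under scaling to totals or upper quartiles. In 5 of the 8 both KO libraries were above both WT libraries (24.7% of all genes), and in 0 below (19.4%). The largest difference was in Rars, the arginyl enzyme, which had 1230.2 and 1376 in WT against 2267 and 2140.3 in Sin3B KO. Its log2 fold change was 0.76 (SE 0.20; 95% confidence interval 0.31 to 1.21; limma, Benjamini-Hochberg adjusted p = 0.548), and the authors' deposited table gives 0.65 with an adjusted p of 0.0973. Both KO libraries of Rars were far above both WT libraries, and the libraries within a genotype were close to each other.

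Eprs, a fused enzyme that charges both glutamate and proline, had 4638 and 4970.1 in WT against 6589 and 6769 in the KO, a log2 fold change of 0.48 (SE 0.18). The groups were again separate, with a gap between them wider than either pair. Kars, the lysyl enzyme of the complex, had 3591 and 4631 in WT against 5129 and 5395 in the KO. Its groups were separate, but WT 2 lay nearer to the KO than to WT 1 and the log2 fold change of 0.37 (SE 0.20) had a confidence interval from -0.09 to 0.82.

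Dars and Iars, the aspartyl and isoleucyl enzymes, showed differences of a similar size. Dars had 2710.1 and 2179 in WT against 3613 and 2938 in the KO (log2 fold change 0.42, SE 0.21). Iars had 1398 and 1158 in WT against 1838 and 1639 in the KO (log2 fold change 0.45, SE 0.21). In both genes the groups did not overlap. A stretch of 1656 bases of the Iars transcript is 96.0% identical to the processed pseudogene Gm4849, so its count is uncertain where the authors' counting could split reads between them.

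The remaining enzymes of the complex had overlapping groups. Lars, the leucyl enzyme, had 1115 and 1409 in WT against 1399 and 1628 in the KO (log2 fold change 0.27, SE 0.22). Mars, the methionyl enzyme, had 667 and 955 in WT against 1166 and 818 in the KO (0.29, SE 0.28). Qars, the glutaminyl enzyme, had 1837 and 2389 in WT against 2008 and 2327 in the KO (log2 fold change 0.05, SE 0.21), and its interval of -0.44 to 0.53 reaches to both sides of 0. The scaffold proteins Aimp2 and Eef1e1 of the complex were measured beside these enzymes. Aimp2, whose groups did not overlap, had 1365 and 1469 in WT against 1829 and 1820.1 in the KO (log2 fold change 0.37, SE 0.19), and Eef1e1 had 978 and 837 in WT against 1207 and 937 in the KO (0.23, SE 0.23).

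Outside the complex, Farsa and Farsb, which encode the alpha and beta subunits of the phenylalanyl enzyme, both had non-overlapping groups. Farsa had 2711 and 3106 in WT against 4595 and 4516 in Sin3B KO, a log2 fold change of 0.65 (SE 0.19; 95% confidence interval 0.23 to 1.07; limma, Benjamini-Hochberg adjusted p = 0.548). Farsb had 1308 and 1055 in WT against 1774 and 1669 in the KO (0.55, SE 0.21). The subunits, which assemble in equal numbers, had log2 fold changes that differed by less than either standard error.

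Wars, the tryptophanyl enzyme and a gene known to be induced by interferon gamma, had 1849 and 2483 in WT against 3384 and 3539 in the KO (log2 fold change 0.69, SE 0.21; 95% confidence interval 0.21 to 1.17). Both KO libraries of Wars were well above both WT libraries. Hars and Nars, the histidyl and asparaginyl enzymes, were steady within WT. Hars had 1643 and 1659.7 in WT against 2240.4 and 2410.5 in the KO (0.49, SE 0.19), and Nars had 3546 and 3668 in WT against 5455 and 4677 in the KO (0.49, SE 0.19). Tars, the threonyl enzyme, had 1729.6 and 1585 in WT against 2349 and 2166 in the KO (0.45, SE 0.19).

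The other cytosolic genes with separate groups had intervals that included 0. Cars, the cysteinyl enzyme, had 748 and 839 in WT against 1144 and 951 in the KO (log2 fold change 0.40, SE 0.22). Sars, the seryl enzyme, had 2164 and 2759.5 in WT against 3108 and 2819 in the KO (0.28, SE 0.20). Yars, the tyrosyl enzyme, had 854 and 1461 in WT against 1537 and 1484 in the KO (0.43, SE 0.27). In Sars and Yars the groups were apart by a narrow margin, since WT 2 reached nearly to the lower KO library. Over the left-out libraries the log2 fold change ran from 0.05 to 0.82 in Yars, 0.03 to 0.55 in Mars, 0.18 to 0.55 in Kars and -0.77 to -0.17 in Vars.

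Gars and Vars were the exceptions in the other direction or in neither. Gars, the glycyl enzyme, had 314 and 446 in WT against 476 and 322 in the KO (log2 fold change 0.07, SE 0.33), so that the spread within each genotype exceeded the difference. Vars, the valyl enzyme, was the 1 cytosolic gene with a negative value. It had 944 and 1375 in WT against 667 and 1011 in the KO (log2 fold change -0.47, SE 0.28), with overlapping groups and, in both genotypes, a lower value in the library numbered 1.

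**Figure D2:**
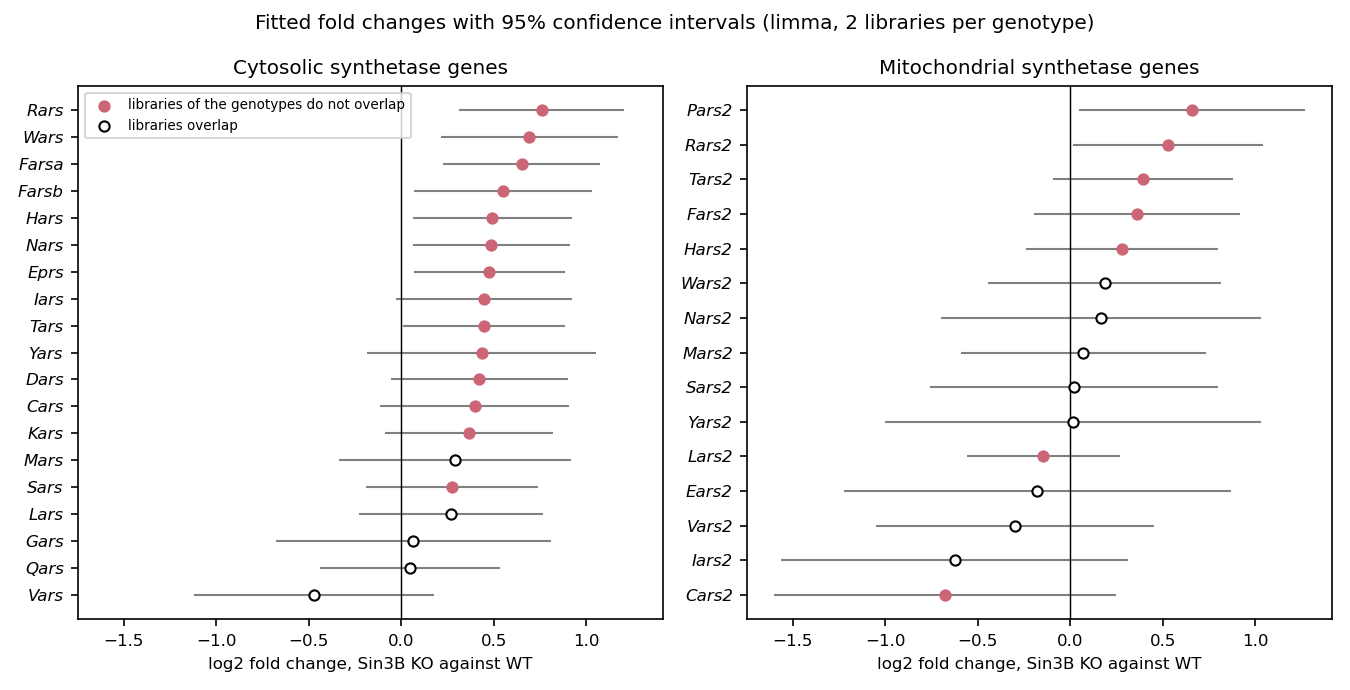
Fitted log2 fold change, Sin3B KO against WT, of 34 of the 35 synthetase genes with its 95% confidence interval (limma, 2 libraries per genotype); filled points mark genes whose WT and KO libraries do not overlap. The cytosolic values run from -0.47 (Vars) to 0.76 (Rars), and the mitochondrial values from -0.68 (Cars2) to 0.66 (Pars2).

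Among the 16 mitochondrial enzymes, 3 genes were higher in Sin3B KO at an unadjusted p under 0.05 (4.97% of all genes), Pars2 and Rars2 among them, and 0 were lower (3.95%). Pars2, the prolyl enzyme, had 385 and 565 in WT against 736 and 737 in the KO (log2 fold change 0.66, SE 0.27; limma, Benjamini-Hochberg adjusted p = 0.548). Rars2, the arginyl enzyme, had 674 and 583 in WT against 904 and 901 in the KO (0.53, SE 0.23). In both genes the groups were separate, and in Pars2 the WT libraries were spread more widely than the KO libraries.

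Higher and non-overlapping, with intervals that included 0, were Tars2, Fars2 and Hars2. Tars2, for threonine, had 1564 and 2093 in WT against 2323 and 2429 in the KO (log2 fold change 0.39, SE 0.21). Fars2, for phenylalanine, had 577 and 720.0 in WT against 915 and 746 in the KO (0.36, SE 0.24). Hars2, for histidine, had 959 and 741 in WT against 1027 and 1020.2 in the KO (0.28, SE 0.23). Over the left-out libraries the values ran from 0.18 to 0.60 in Tars2, 0.09 to 0.47 in Hars2 and 0.38 to 0.93 in Pars2. The transcripts of Hars and Hars2 are identical over 195 bases on opposite strands, and no use of strand in the counting is stated. In all, 12 synthetases share an identical stretch with the opposite strand of another gene, Cars, Farsb, Mars, Nars2 and Vars2 among them. The Farsb stretch covers 250 of 2036 bases, opposite Sgpp2. The effect on the counts of these genes was not tested.

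Cars2 and Lars2 were lower in both KO libraries. Cars2, the cysteinyl enzyme, had 208 and 284 in WT against 133 and 173 in the KO (log2 fold change -0.68, SE 0.41). Its cytosolic counterpart Cars lay on the other side of 0. The Cars2 transcript shares 217 of its 1902 bases with the opposite strand of Naxd, and the effect on its count was not tested. Lars2, the leucyl enzyme, had 14049 and 14509 in WT against 12549 and 13266 in the KO (log2 fold change -0.15, SE 0.18). The groups of Lars2 were apart, but the interval of -0.56 to 0.27 includes 0.

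Iars2, the isoleucyl enzyme, had 303 and 707 in WT against 263 and 342 in the KO (log2 fold change -0.63, SE 0.41), and this value rests on WT 2. Without WT replicate 2 the log2 fold change of Iars2 was -0.02, and without WT replicate 1 it was -1.23. The Iars2 transcript shares 2034 of its 5471 bases with the opposite strand of Rab3gap2, which had 1035 and 1539 in WT against 1131 and 1254 in the KO and was likewise highest in WT 2. Reads of overlapping genes cannot be told apart without strand. Log2 fold changes of the remaining 7 mitochondrial genes (Ears2, Mars2, Nars2, Sars2, Vars2, Wars2 and Yars2) lay between -0.30 and 0.18, their groups overlapped, and their standard errors ranged from 0.28 to 0.46. Their counts lay between 123 and 573 per library.

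Grouped by catalytic fold, a grouping made after the values were seen and not tested, the class II enzymes all had values above 0. These were 9 cytosolic and 7 mitochondrial genes, with medians of 0.45 and 0.36. Of the 16, 13 had non-overlapping groups with the KO higher, where 24.7% of all genes did. Gars and Sars2 were below 0 with scaling to totals or upper quartiles. Class I is the other architecture of the catalytic domain. The class I genes were mixed, with 8 of 9 cytosolic and 4 of 9 mitochondrial genes above 0 and medians of 0.40 and -0.15. The genes below 0 (Vars, Cars2, Ears2, Iars2, Lars2 and Vars2) were all class I. Eprs holds both folds and was left out of this grouping.

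Fold changes in these libraries were related to expression level and to transcript length across all genes, which are not independent replicates (Spearman rho 0.306 with the mean level over 9244 genes and -0.281 with length over 8915). After the trend on mean level was removed, the medians were 0.32 for the cytosolic genes, with 17 of 19 above 0, and 0.25 for the mitochondrial genes, with 12 of 16 above 0. The mitochondrial median thus moved more than 1.5 times, and the compartments were closer together. After the trend on length was removed the medians were 0.42, with 18 of 19 above 0, and 0.22, with 9 of 16 above 0.

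Levels of different genes were compared per kilobase of the longest protein-coding transcript. The cytosolic genes had a median of 759.9 normalised counts per kilobase, which lay at percentile 83.9 of all genes with a length, and 18 of 19 were above the median gene (228). By the mean of all 4 libraries Kars was the highest, at 1878 ± 336 (SD, n = 2) in WT and 2404 ± 86.2 in the KO, followed by Farsa, the higher of the pair in the KO, at 1593 ± 153 and 2495 ± 30.7 and Nars at 1314 ± 31.6 and 1846 ± 200.4. Lowest per kilobase were Gars at 159.6 ± 39.4 and 168 ± 45.7, Vars at 280.3 ± 73.6 and 203 ± 58.8, and Cars at 246 ± 19.9 and 325 ± 42.4. The order descends gradually, since the ranges over the 4 libraries were apart in 0 of the 18 neighbouring pairs of cytosolic genes.

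The mitochondrial genes had a median of 119 normalised counts per kilobase, at percentile 29.3, and 6 of 16 were above the median gene. Lars2 stood alone at 3667 ± 83.5 per kilobase in WT and 3315 ± 130.1 in the KO, above every other synthetase of either compartment. Tars2 followed at 566 ± 116 and 736 ± 23.3, and Rars2 at 336 ± 34.5 and 483 ± 1.41. At the other end were Mars2 at 40.9 ± 6.75 and 43.2 ± 10.6, Yars2 at 54.6 ± 0.404 and 55.7 ± 11.8, and Iars2 at 92.3 ± 52.2 and 55.3 ± 10.1. Apart from the steps from Lars2 to Tars2 and from Tars2 to Rars2, neighbouring genes in this order had overlapping ranges over the 4 libraries. The Lars2 transcript carries a stretch of 72 bases that is 98.6% identical to Gm15564, annotated as an antisense transcript, and how much this adds to its count was not tested. The level and fold change of Lars2, and the leucine ratio below, are uncertain to that extent.

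For the same amino acid, the cytosolic gene had more counts per kilobase than the mitochondrial gene in every library in 15 of 17 pairings, with a median ratio of 5.71. Eprs stands in the pairings of both its amino acids, and Fars2 is paired with each subunit gene. The ratio was widest for asparagine, at 20.7 (13.5 to 26.7 over the 4 libraries), and for glutamate, at 14.7 (9.64 to 22.9). It was narrow for arginine, at 2.03 (1.62 to 2.22). The pairings that went the other way in every library were threonine, where Tars had 0.75 of the level of Tars2 (0.611 to 0.891), and leucine, where Lars had 0.0999 of that of Lars2 (0.0777 to 0.120). Per kilobase of all annotated exons the threonine ratio was 1.09, on the other side of 1, and the leucine ratio 0.211. The log2 fold change of the cytosolic gene was the larger in 14 of the 17 pairings, with a median difference of 0.26, and proline and valine were among the exceptions.

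**Figure D3:**
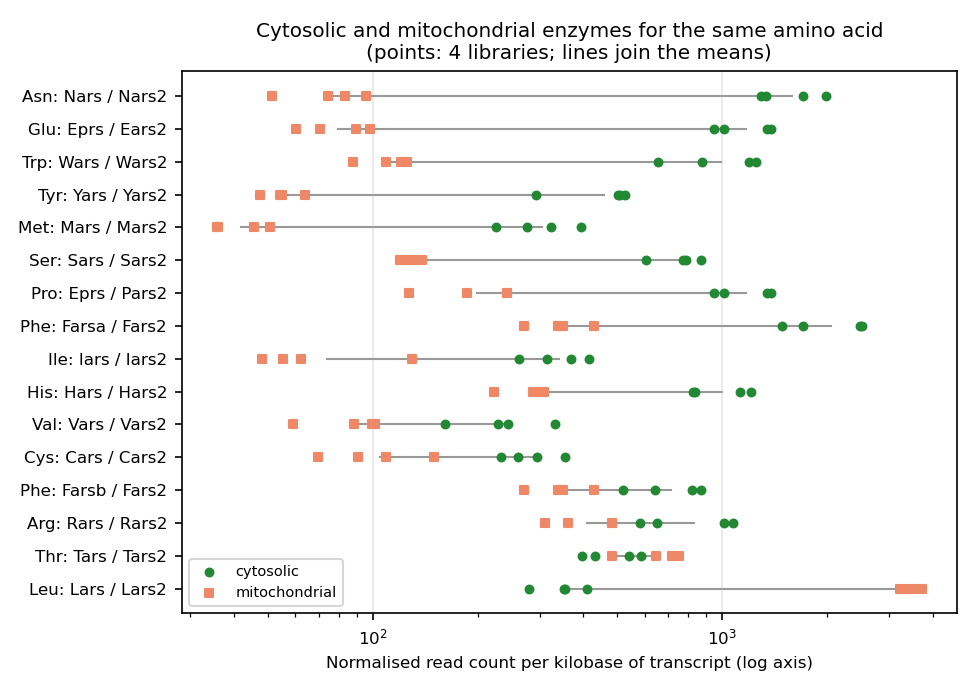
Normalised read count per kilobase of transcript (log axis) of the cytosolic (green circles) and mitochondrial (orange squares) enzyme in 16 of the 17 pairings, by amino acid, in the 4 libraries, with lines between the means. Asparagine has the widest ratio, 20.7, and for threonine and leucine the mitochondrial gene is the higher, the former not so with the length of all exons (ratio 1.09).

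Promoters were examined for short motifs of factors that are known to act on these genes or through Sin3. RefSeq promoter sequences (GRCm38.p6, 250 bases before to 50 after the start) matched 24 of the 35 genes, 11 cytosolic and 13 mitochondrial. The motifs were searched on both strands. The core of the amino acid response element, TGATGNAA, through which Atf4 acts on synthetase genes, was in 4 of 11 cytosolic (36.4%) and 0 of 13 mitochondrial promoters, and in 4.51% of the 27025 genes with a promoter. The 4 windows are shown because they hold the motif that cytosolic promoters carried most often, on the strand of the gene, with the motif or its reverse complement in capitals:
Tars, chr15:11399655-11399684, minus strand: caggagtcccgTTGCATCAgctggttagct
Gars, chr6:55037960-55037989, plus strand: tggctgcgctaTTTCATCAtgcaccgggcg
Iars, chr13:49682126-49682155, plus strand: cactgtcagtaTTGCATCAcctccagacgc
Yars, chr4:129189895-129189924, plus strand: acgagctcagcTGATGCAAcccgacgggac

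In Tars and Gars the motif lies before the start site and in Iars and Yars just after it. Log2 fold changes of these genes were 0.45 (Tars), 0.45 (Iars), 0.43 (Yars) and 0.07 (Gars), within the range of the cytosolic genes whose promoters lack the motif or were not in the table.

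The E-box CACGTG, bound by Myc with Max and by the Mxd proteins that bring Sin3 to DNA, was in 3 of 11 cytosolic promoters (27.3%) and 1 of 13 mitochondrial promoters (7.69%), and in 8.09% of all. The windows of the 4 genes, with the E-box in capitals, are shown because Mxd proteins, as partners of Sin3, recognise this motif:
Farsb, chr1:78488919-78488948, minus strand: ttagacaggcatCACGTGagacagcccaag
Iars, chr13:49682049-49682078, plus strand: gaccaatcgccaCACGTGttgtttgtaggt
Tars, chr15:11399622-11399651, minus strand: tccgcctgtggcCACGTGgcgcacgcgcag
Ears2, chr7:122067048-122067077, minus strand: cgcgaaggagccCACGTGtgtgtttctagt

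Iars and Tars thus hold both motifs. Ears2, with 201 and 144 in WT against 184 and 123 in the KO, had overlapping groups, while Farsb, Iars and Tars had separate ones. The core of the nuclear respiratory factor 1 site was in Farsb, Kars and Tars of the cytosolic and in Iars2 and Mars2 of the mitochondrial promoters, against 5.19% of all genes. The core of the interferon-stimulated response element was in Qars alone, against 3.99% of all genes. The promoter of Wars was not examined.

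In the GENCODE M21 annotation of GRCm38, 5 of the 35 genes (14.3%) have, within 1000 bases upstream of their start, the start of a protein-coding gene running the other way, where 11.5% of tested protein-coding genes do. Head-to-head genes whose first exons overlap, such as Hars with Hars2, Fars2 with Lyrm4 and Ears2 with Ubfd1, were not counted. Rars2 begins 13 bases from Orc3, a subunit of the origin recognition complex, which had 1978 and 1259 in WT against 2532 and 1909 in the KO (log2 fold change 0.48). Of the other neighbours, Terf2ip beside Kars had a log2 fold change of -0.35, S100pbp beside Yars 0.02 and Mrps12, a mitochondrial ribosomal protein gene beside Sars2, 0.13.

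Genes that prepare tRNA for charging had a smaller median than the cytosolic synthetases. Of 42 listed genes of tRNA transcription and maturation 39 were measured, 25 with a log2 fold change above 0 and a median of 0.15. In 14 both KO libraries were above both WT libraries (24.7% of all genes) and in 3 below (19.4%). At an unadjusted p under 0.05, 4 were higher (4.97% of all genes) and 1 lower (3.95%). Among the higher were Crcp, a subunit of RNA polymerase III (991 and 1163 in WT, 1859.8 and 1744 in the KO), Clp1, an RNA kinase (1035 and 793 against 1623 and 1504), and Trnt1, which adds the terminal CCA (908 and 689 against 1271 and 1294). Bdp1, of the initiation factor of RNA polymerase III, was lower (1022 and 859.5 against 675 and 619).

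Synthetase-like and proofreading genes, which edit or resemble the charging enzymes, had 5 of 7 measured members above 0, a median of 0.39, and 0 members with an unadjusted p under 0.05. The most abundant were the deacylases Dtd1 (1598 and 2183 in WT, 2115 and 2345 in the KO) and Dtd2 (853 and 1008 against 1205 and 1226). In mitochondria, glutaminyl-tRNA is made from glutamyl-tRNA by an amidotransferase. Of its subunits Pet112 was the most different, at 436 and 403 in WT against 878 and 579 in the KO (log2 fold change 0.77, SE 0.28), while Qrsl1 (365 and 375 against 421 and 392) and Gatc (955 and 1001 against 1143 and 1011) differed by a log2 value of 0.14 each.

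Targets of Atf4 other than the synthetases were spread on both sides of 0. Of 30 listed genes 21 were measured, 11 above 0 and 10 below, with a median of 0.02, and 4 had non-overlapping groups with the KO higher and 3 with the KO lower, where 24.7% and 19.4% of all genes did. At an unadjusted p under 0.05, 4 were higher (4.97% of all genes) and 1 lower (3.95%). Higher were the proline and serine synthesis enzymes Aldh18a1 (2167 and 2184 in WT, 3251 and 2695 in the KO) and Psat1 (1147 and 1662 against 2245 and 1949). So were the folate enzyme Mthfd2 (513 and 461 against 1064 and 634) and the stress gene Nupr1 (1027 and 1823 against 1862 and 3458). The lipoprotein receptor gene Vldlr was lower (486 and 350.1 against 192 and 146). The 16 measured genes of uncharged tRNA and eIF2 signalling had a median of 0.22, with 13 above 0. Under an unadjusted p of 0.05, 0 were higher (4.97% of all genes) and 0 lower (3.95%). The most abundant were Impact, an inhibitor of Gcn2 (3492 and 2606 against 3347 and 3614), and Ppp1r15a, a phosphatase subunit (1641 and 4819.8 against 2001 and 3722).

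Genes of translation downstream of charging had medians of 0.14 for 7 genes of cytosolic elongation and 0.13 for 9 mitochondrial translation factors. Eef1a1 carries charged tRNA to the ribosome and Eef2 moves the ribosome along. Eef1a1 had 33148 and 37557 in WT against 36506 and 35502 in the KO, and Eef2 had 35459 and 42265 against 36035 and 37941, so the main cytosolic factors overlapped between the genotypes. Of the 9 mitochondrial ones 1, Gfm1, was higher at an unadjusted p under 0.05 (4.97% of all genes) and 0 were lower (3.95%). Gfm1 had 629 and 561 in WT against 1004 and 847 in the KO (log2 fold change 0.63, SE 0.23).

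The library numbers that separated the myeloid genes gave smaller differences in the cytosolic synthetases. Between WT 1 and WT 2 their median log2 difference was -0.20, with 4 of 19 higher in WT 1, and between Sin3B KO 1 and 2 it was 0.08, with 12 of 19 higher in KO 1. For the 13 myeloid genes the same medians were 3.21 and 1.14, for the 7 erythroid genes 0.66 and 2.31, and for the 8 genes of dividing cells 0.69 and 0.85. Gata1, Car1 and Epor of the 7 erythroid genes were higher in both KO libraries, as were Aurkb and Cdk1 of the 8 genes of dividing cells. So were 14 of the 19 cytosolic synthetases, beside 24.7% of all genes and 31.8% of genes averaging at least 500. The part of the erythroid and dividing cell genes in the result was not tested. The median log2 level of the 19 cytosolic genes was 10.68 and 10.63 in WT against 11.13 and 11.08 in the KO. That of the 16 mitochondrial genes was 8.61 and 9.10 in WT against 9.14 and 8.79 in the KO, so the cytosolic medians were apart between the genotypes and the mitochondrial medians overlapped.

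**Figure D4:**
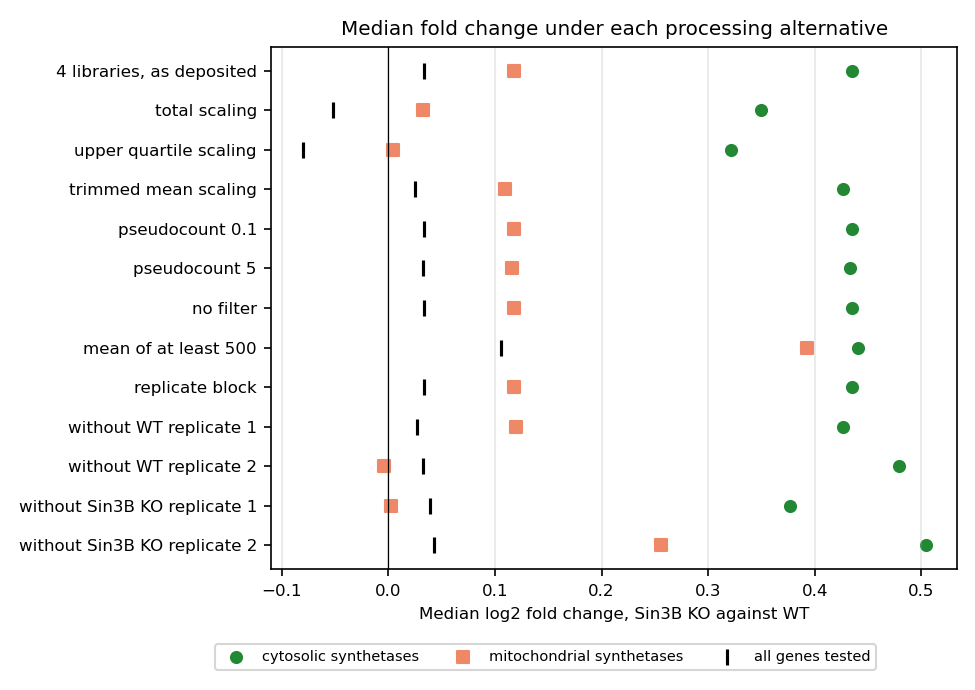
Median log2 fold change, Sin3B KO against WT, of the 19 cytosolic synthetases (green circles), the 16 mitochondrial synthetases (orange squares; fewer of each with a mean of at least 500) and all genes tested (black bars) under each processing alternative. The cytosolic median stays between 0.32 and 0.50, while the mitochondrial median runs from about 0 to 0.39.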

How the data were processed

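The members and lists were chosen with earlier results of these data known. Bowtie, DESeq and the build mm9 appear in the submitters' processing notes without versions, and for the counting no tool or annotation is given in the sources used here. Deposited by the authors was 1 table whose library columns hold a signal, taken here as the read count divided by 1 size factor per library. Every value was a whole multiple of its library's step within 0.01 of a step. Per the file headers it also gives the authors' log2 fold change with its error, a test score and p-values before and after adjustment; 552 of 9796 rows lack library values and were left out. limma 3.58.1 (R 4.3.3, trended prior) was fitted to log2(value + 1) of the 9244 genes that reached 1 in 2 or more libraries, by genotype alone, with Benjamini-Hochberg adjustment over all of them. A 95% confidence interval extended 0.60 (log2) to either side in the median gene. The fit was tested on simulated data with independent noise in each library. Those data lack the replicate differences shared between the genotypes here. Transcript lengths and neighbours came from GENCODE M21 (GRCm38, another build than the authors'), and shared sequence from BLAST 2.17.0 (at least 50 bases at 95% identity). A few genes, 1 member among them, are counted in totals and medians but not reported here. Values per library were given for those with separate groups, in the complex, under an unadjusted p of 0.05 or at either end of the levels, and in other lists for genes under an unadjusted p of 0.05 or else the 2 most abundant, with others chosen after their values were seen. Alternatives were other scalings, pseudocounts and filters, a looser threshold, a block on the replicate number, and leaving out each library in turn. Removal of trends on length and level, and the length of all exons in place of the transcript, were added after the data were seen.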

Additional observations from a re-analysis of the deposited data

How the results depend on the processing

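Under each alternative run, 0 synthetases passed the adjusted threshold. The 2 count models planned for recovered reads were not run. Every value was a whole multiple of its library's step, but the table holds too few low values to establish that 1 step is 1 read. The median of the cytosolic genes was 0.35 with scaling to totals, 0.32 with upper quartile scaling and 0.32 with the trend on mean level removed, and 0.38 to 0.50 over the left-out libraries. Upper quartile scaling moves the median of all genes by -0.11. Relative to all genes the cytosolic median was 0.40 with every scaling. Scaling by 1 factor per library shifts all genes almost equally, so this difference could hardly change and is no test. The median of the mitochondrial genes was -0.0039 (without WT replicate 2) to 0.26 over the left-out libraries, 0.03 with scaling to totals, 0.0041 with upper quartile scaling and 0.39 when genes averaging under 500 were dropped. Counts of synthetases with an unadjusted p under 0.05 ranged from 1 to 14 over the left-out libraries, 2 of the 14 lower in the KO (without WT replicate 1, where 9.04% of all genes were higher), and with the block 13 were higher and 2 lower. With the replicate number as a block, 9.17% of all genes were higher at an unadjusted p under 0.05. At the adjusted threshold 27 of all genes passed with the block and 0 synthetases did (limma, smallest Benjamini-Hochberg adjusted p among the synthetases 0.105). The labels do not say what this number stands for, and across genes the differences between replicates 1 and 2 correlated at 0.465 between the genotypes. Over all genes 0 to 1 passed with a library left out.

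Signs of members near 0 changed in 24 of 410 recomputed values, from 9 genes. Of the 24, 10 arose with scaling and the rest with a library left out. The 410 include the filters and the replicate block, which left each fitted value as it was. No sign could change there, and the pseudocounts moved values only slightly. With total scaling the log2 fold changes were -0.015 for Mars2, -0.019 for Gars, -0.040 for Qars, -0.064 for Sars2 and -0.071 for Yars2, and with upper quartile scaling -0.044, -0.048, -0.068, -0.092 and -0.10 in that order. Over the left-out libraries the ranges were -0.46 to 0.11 for Ears2, -0.22 to 0.35 for Gars, -0.18 to 0.32 for Mars2, -0.28 to 0.61 for Nars2, -0.14 to 0.23 for Qars, -0.083 to 0.12 for Sars2, -0.67 to 0.076 for Vars2, -0.042 to 0.41 for Wars2 and -0.20 to 0.23 for Yars2. The ratio of Tars to Tars2 was 1.09 with the length of all exons. The cause of these changes was not tested, other than this change of length.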
